A study of Gallus gallus with 12 samples.

Results

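The question addressed here is which genes separate the dissected Müllerian duct from the tissue it arises on, whatever the day of dissection and whatever the region. Both ducts, at embryonic day (E) 6.5 and E5.5, were set against both regions of the E4.5 urogenital system, 6 duct libraries against 5 E4.5 libraries. A gene was taken as a member of the set where the lowest of its 6 duct values lay above the highest of its 5 E4.5 values, or the reverse. This held for 4635 of 24121 genes, 2055 of them higher in the ducts and 2580 lower.

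The series held 12 bulk RNA-seq libraries of Hy-Line Brown chicken embryos, 3 from each of 4 tissues, and every library was a pool of several embryos of unrecorded sex. E6.5 duct and E5.5 duct were Müllerian ducts peeled off the mesonephros, and hold duct epithelium, surface epithelium and mesenchyme. E4.5-Ant was the anterior part of the urogenital system, with mesonephros, mesentery and the ridge in which the duct starts, and E4.5-Post was the remaining posterior part, without that ridge, which served as control tissue. No embryo was treated or genetically changed. The ducts are therefore both later and dissected differently, and age and tissue cannot be told apart in any difference given here. In bulk tissue, fewer cells of a type and less RNA per cell cannot be told apart either. For 1 of the samples titled E5.5 duct the cell type is entered as posterior kidney, and the tables do not show which library it is. It was kept as E5.5 duct, as its title has it.

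Reads counted on genes numbered between 25395091 and 31373783 in the duct libraries and between 24235353 and 28753538 in the 5 E4.5 libraries. Levels are given as CPM, the count of a gene scaled to the counts on all genes of its library. Counting error alone is small at these totals for abundant genes and large for genes with a few counts. A gene with 3 counts or fewer in each library of a side was taken as at the floor. The second E4.5-Ant library had 42.1% of its counts on rRNA genes and was left out, as the study left out 1 E4.5-Ant sample, whereas the others had 0.199% to 1.95%. E5.5 duct library 2 had the highest rRNA share of those used, and some counts are given without it as well. Hemoglobin genes held 795 to 1319 CPM in the ducts and 2845 to 3682 CPM in E4.5 tissue, and their part in other differences was not tested. W-linked genes held 984 to 1905 CPM in the ducts and 1183 to 1938 CPM in E4.5 tissue, and these ranges overlap. Regulators that mark early duct tissue were present in every duct library, with PAX2 at 219 to 335 CPM and EMX2 at 134 to 189.6 CPM. Both were also present in every E4.5 library, EMX2 at 71.02 to 117.9 CPM, so their presence cannot show that the dissected tissue is duct.

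The Müllerian duct is the embryonic tube that becomes the oviduct of birds and the oviduct, uterus and upper vagina of mammals. It begins as a placode of the coelomic epithelium over the mesonephros, invaginates, and grows backwards along the Wolffian duct, which supplies WNT9B, while the mesenchyme around it thickens. The mesonephros is the working kidney of the embryo, whose glomeruli contain podocytes, the cells that form the filtration slit, and whose tubules reabsorb the filtrate.

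Of the 24121 genes, 16603 passed the filter on low counts and were tested with edgeR's quasi-likelihood test. Among these, 2021 (12.2%) were higher in every duct library than in every E4.5 library and 2540 (15.3%) were lower, 4561 (27.5%) in all. The excess of lower genes depended on the scaling, since 2308 were higher and 2185 lower on TMM-scaled CPM, and 2218 and 2301 with DESeq2 size factors. Of the 7518 genes not tested, 34 were higher and 40 lower without overlap. Genes with a Benjamini-Hochberg FDR of at most 0.05 and a change of at least 1.5-fold were counted as differentially expressed (DEG), and the log2 fold change is given as log2FC, ducts minus E4.5, with its standard error. They numbered 3049 (18.4%), 2025 higher in the ducts (12.2%) and 1024 lower (6.17%), whereas 9601 (57.8%) passed the FDR limit alone. Both conditions together held for 1291 genes that rose (7.78%) and 646 that fell (3.89%), 1937 in all (11.7%). Without E5.5 duct library 2, 1379 of the 2025 and 676 of the 1024 DEG did not overlap. Whether DEG or not, 2425 genes were then higher and 2675 lower without overlap. With the omitted E4.5-Ant library counted in, 1921 genes were higher and 243 lower without overlap, whether DEG or not. The rRNA share of that library (42.1%) lowers the CPM of its other genes, so its count of lower genes is not comparable. Separation without overlap was used to choose these genes, so their own fold changes describe them and are no further evidence.

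Many separated genes differed by little. The fold limit was missed by 730 of the 2021 higher genes (36.1%) and by 1894 of the 2540 lower genes (74.6%). The gap between the nearest libraries had a median ratio of 1.14 for the higher and 1.08 for the lower genes, and it reached 2-fold for 154 and 78 genes and 4-fold for 27 and 21 genes. At the limit itself, PIGP (lowest duct and highest E4.5 library both at 18.8 CPM after rounding) and VDAC1 (highest duct and lowest E4.5 library both at 24.4 CPM) lay just inside, and KDM1A and CPSF3, with rounded values of 383 and 91.8 CPM in both of the nearest libraries, lay just outside. The median log2FC of all tested genes was 0.01.

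**Figure D1:**
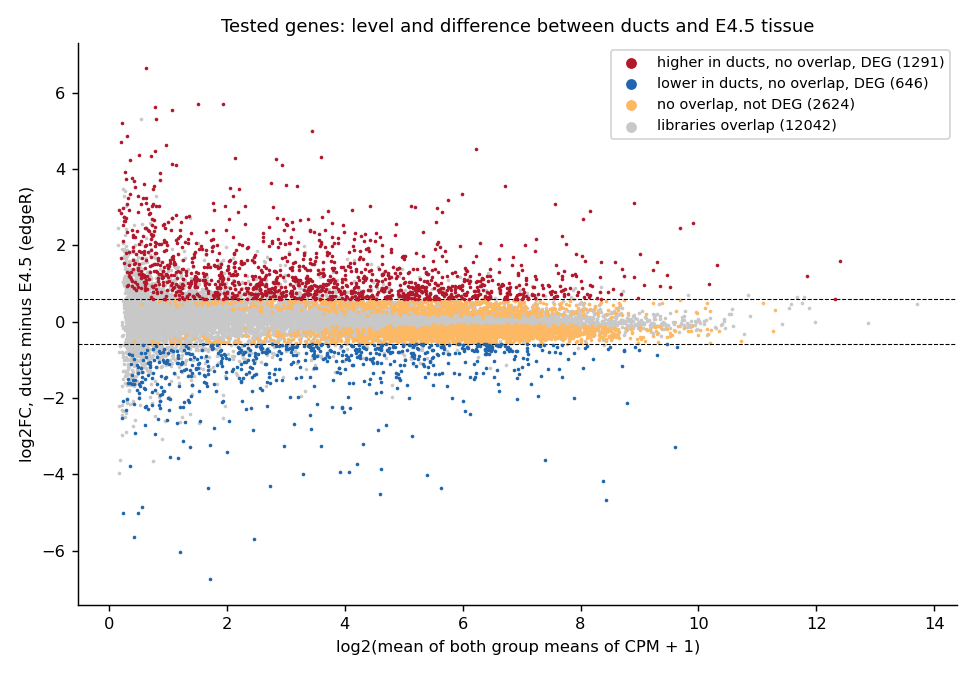
Each point is a tested gene, placed by its level (x axis, log2 of the mean of both group means of CPM plus 1) and by its log2FC between ducts and E4.5 tissue (y axis), with dashed lines at the 1.5-fold limit in each direction. The 1291 red and 646 blue points are DEG whose libraries do not overlap, and the 2624 orange points are separated genes inside the fold limit.

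The 1291 genes that rose without overlap had a median log2FC of 1.08, and the 646 that fell had a median of -1.004. A change of at least 2-fold was found for 716 and 325 of them, and of at least 4-fold for 211 and 87. Long non-coding RNAs made up 248 of those that rose (19.2%) and 84 of those that fell (13%), against 13% of all tested genes. The choice of genes depends on the spread within each side, so their shares in the comparisons within a side are a description. At E6.5 relative to E5.5, 683 duct genes rose (4.11%) and 573 fell (3.45%), 1256 in all (7.56%). Without E5.5 duct library 2, 602 rose and 432 fell, and the total ran from 911 to 1327 with each library left out in turn. Of the 1291 that rose in the ducts, 261 (20.2%) were higher and 11 (0.85%) lower at E6.5, and of the 646 that fell, 4 (0.62%) were higher and 95 (14.7%) lower. The anterior E4.5 region was set against the posterior in the same way, and 1278 genes rose (7.7%) and 507 fell (3.05%) anteriorly, 1785 in all (10.8%). Of the genes that rose in the ducts, 190 (14.7%) were among those 1278 and 76 (5.89%) among those 507, and of the genes that fell in the ducts, 37 (5.73%) and 90 (13.9%). In neither of these comparisons were 816 of the 1291 (63.2%) and 455 of the 646 (70.4%) DEG, against 84.0% of all tested genes. Of the 734 DEG that rose with overlap, 226 (30.8%) were higher anteriorly and 337 (45.9%) were DEG in neither comparison. Mean levels increased in the order E4.5-Post, E4.5-Ant, E5.5 duct, E6.5 duct for 626 of the 1291 (48.5%) and decreased in it for 332 of the 646 (51.4%), and the choice of genes fixes the place of the ducts in this order.

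The largest rises among genes with a mean of at least 5 CPM in the ducts included regulators of axial patterning, receptors, a protease and a globin. HOXD13 had 2.14 (lowest), 6.09 (median) and 9.42 CPM (highest) in the ducts, against 0 and 0.248 CPM in E4.5-Ant and 0.147, 0 and 0.104 CPM in E4.5-Post (log2FC 5.72 ± 0.48, edgeR FDR 1.92e-07). It is the most posterior gene of the HOXD cluster (gene11326, chromosome 7, 16324760 to 16327305 of the GRCg6a assembly). Both sides were far apart, and the E4.5 libraries held 6 counts of it at most. RNP had between 8.73 and 31.9 CPM in the ducts, with a median of 19.7, against 0.314 and 0.825 CPM in E4.5-Ant and 0.552, 0.530 and 0.522 CPM in E4.5-Post (log2FC 5.004 ± 0.19, edgeR FDR 9.7e-11). The nearest duct and E4.5 libraries of RNP differed 10.6-fold, the widest gap of the genes that rose at this level. SLC17A8, which encodes a vesicular glutamate transporter, had between 7.33 and 36.8 CPM in the ducts, with a median of 19.9, against 1.22 and 1.24 CPM in E4.5-Ant and 0.700, 0.565 and 0.696 CPM in E4.5-Post (log2FC 4.31 ± 0.18, edgeR FDR 1.56e-10). AVPR2, named for the vasopressin V2 receptor that controls water reabsorption in mammalian kidney, had between 11.8 and 17.9 CPM in the ducts, with a median of 15.2, against 0.836 and 1.44 CPM in E4.5-Ant and 1.62, 0.954 and 1.77 CPM in E4.5-Post (log2FC 3.57 ± 0.17, edgeR FDR 5.79e-10). HTRA3, a secreted serine protease, had between 106 and 268 CPM in the ducts, with a median of 204, against 25.7 and 25.9 CPM in E4.5-Ant and 10.4, 8.69 and 9.22 CPM in E4.5-Post (log2FC 3.57 ± 0.10, edgeR FDR 1.18e-11). Of these 5 genes, HTRA3 was the gene that also differed within E4.5 tissue, being higher anteriorly (log2FC 1.42, edgeR FDR 1.37e-05). HOXD13, RNP, SLC17A8 and HTRA3 were higher at E6.5 than at E5.5, with log2FC of 0.98, 1.35, 1.87 and 0.98, whereas AVPR2 had a log2FC of -0.30 (edgeR FDR 0.195). The largest rise of an unnamed gene was that of the lncRNA LOC112532984 (chromosome 1, 10664755 to 10695820), with between 9.54 and 20.2 CPM in the ducts, with a median of 11.1, against 0.488 and 0.495 CPM in E4.5-Ant and 1.18, 0.954 and 1.08 CPM in E4.5-Post (log2FC 4.11 ± 0.23, edgeR FDR 3.01e-09).

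**Figure D2:**
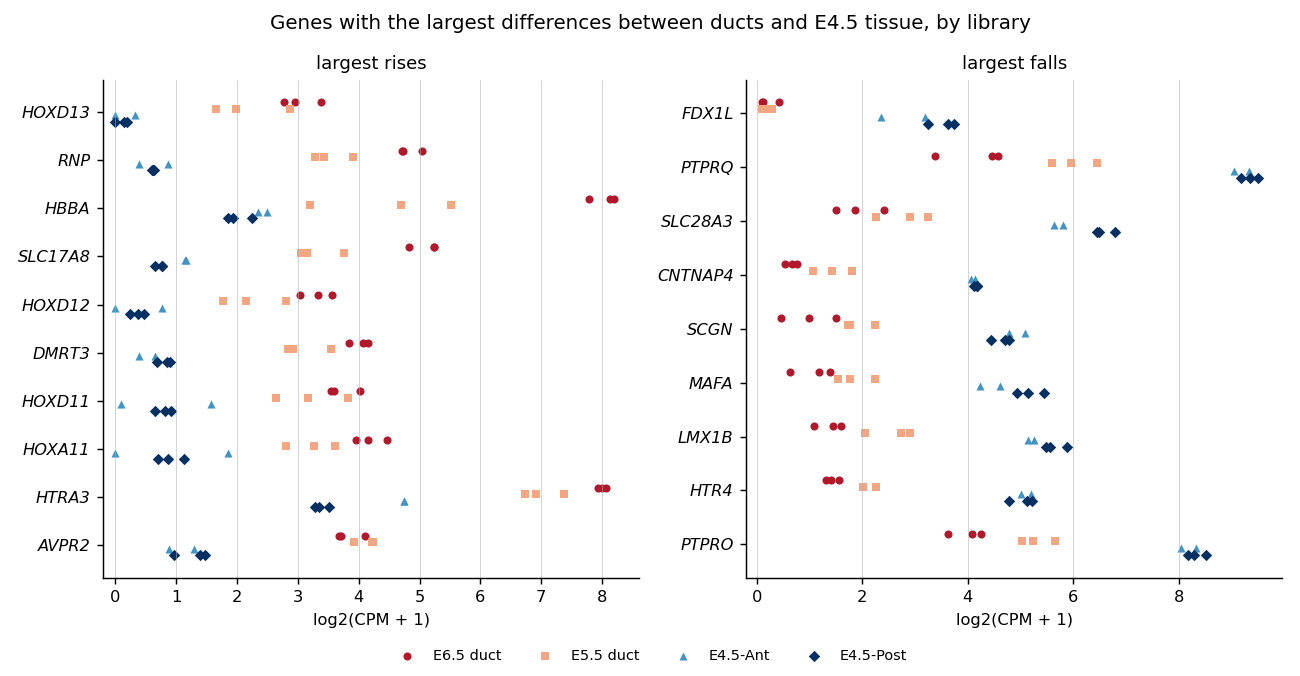
Levels of the 10 genes with the largest rise among those with a mean of at least 5 CPM on the higher side (left) and 9 of the 10 with the largest fall (right) in each of the 11 libraries, on the x axis as log2(CPM + 1), with a row for each gene and a symbol for each tissue. No duct library overlaps an E4.5 library in any row, and E6.5 duct lies farther from E4.5 tissue than E5.5 duct for PTPRQ, PTPRO, HBBA and SLC17A8.

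Among the genes with the most reads that rose, AvBD10, an avian beta-defensin, an antimicrobial peptide, had between 4083 and 5733 CPM in the ducts, with a median of 5030, against 1921 and 2041 CPM in E4.5-Ant and 2735, 2302 and 2400 CPM in E4.5-Post (log2FC 1.21 ± 0.07, edgeR FDR 7.07e-09). SMARCA2, the ATPase of a chromatin remodelling complex, had between 854 and 2483 CPM in the ducts, with a median of 1727, against 251 and 259 CPM in E4.5-Ant and 269, 247 and 258 CPM in E4.5-Post (log2FC 2.60 ± 0.09, edgeR FDR 4.12e-11). It differed little between the E4.5 regions, and E6.5 duct lay above E5.5 duct (log2FC 1.16). CALB1, the calcium-binding protein calbindin that is abundant in renal distal tubules and in the oviduct of laying hens, had between 1117 and 1573 CPM in the ducts, with a median of 1438, against 261 and 284 CPM in E4.5-Ant and 294, 211 and 209 CPM in E4.5-Post (log2FC 2.46 ± 0.10, edgeR FDR 1.42e-10). COL7A1L, a collagen VII-like gene, had between 932 and 1066 CPM in the ducts, with a median of 983, against 447 and 452 CPM in E4.5-Ant and 424, 349 and 436 CPM in E4.5-Post (log2FC 1.24 ± 0.06, edgeR FDR 5.22e-10). Of these 4 genes, SMARCA2 was the gene that was DEG between the ducts, and none was DEG between the E4.5 regions. The duct values of CALB1 and COL7A1L differed little between ages (log2FC 0.21 and 0.07, edgeR FDR 0.216 and 0.537).

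HOX genes are ordered along their clusters as they are along the body, and those of groups 9 to 13 are the posterior ones. Of 13 posterior HOX genes tested, 11 rose, all without overlap, and none fell (84.6% against 12.2% of all tested genes), with a median log2FC of 2.41. Against E4.5-Post alone 9 rose and 1 fell, where 15.5% and 7.54% of all tested genes did. Against E4.5-Ant alone all 13 rose, where 9.31% did. At E4.5, 5 of the 13 were lower in the anterior than in the posterior region, against 3.05% of all tested genes. HOXA11, a gene needed for the uterus in mice, had between 5.96 and 21.1 CPM in the ducts, with a median of 12.9, against 0 and 2.60 CPM in E4.5-Ant and 1.18, 0.813 and 0.626 CPM in E4.5-Post (log2FC 3.59 ± 0.40, edgeR FDR 2.89e-06). HOXD12 had between 2.39 and 10.8 CPM in the ducts, with a median of 6.56, against 0 and 0.702 CPM in E4.5-Ant and 0.295, 0.177 and 0.383 CPM in E4.5-Post (log2FC 4.29 ± 0.39, edgeR FDR 4.42e-07). HOXA10 had between 30.9 and 42.7 CPM in the ducts, with a median of 35.7, against 0.174 and 11.97 CPM in E4.5-Ant and 8.18, 8.34 and 11.4 CPM in E4.5-Post (log2FC 2.33 ± 0.38, edgeR FDR 0.000114). These genes were low in E4.5 tissue, but the 2 E4.5-Ant libraries did not match, since library 1 held 0, 0 and 0.174 CPM of HOXA11, HOXD12 and HOXA10. The summed level of the list was 15.7 CPM in E4.5-Ant library 1 and 83.7 in library 3, 149.5, 155 and 161 in E4.5-Post and between 194 and 252 in the ducts. Without E4.5-Ant library 3, the log2FC of HOXD13, HOXA11, HOXD12 and HOXD11 became 8.08, 7.63, 7.39 and 5.49, and that of HOXA13, which was 4.64 ± 0.47 with at most 4 counts in an E4.5 library, became 6.26. Without E4.5-Ant library 1, those of HOXD13, HOXA11, HOXD12 and HOXD11 were 5.17, 3.05, 3.74 and 3.13. All of these kept their call. HOXB9 and HOXD9, the members that were not DEG, had 34.3 to 42.8 CPM in ducts and 7.42 to 71.8 CPM in E4.5 tissue (HOXB9), and 14.1 to 18.5 CPM in ducts and 4.56 to 19.8 CPM in E4.5 tissue (HOXD9).

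Within the posterior genes the size of the rise differed by group. Of the group 9 genes, HOXA9 and HOXC9 rose by 1.20 and 1.71 on the log2 scale. HOXA10, HOXC10 and HOXD10 rose by 2.33, 2.41 and 2.07, HOXA11, HOXC11 and HOXD11 by 3.59, 3.62 and 3.64, and HOXA13 and HOXD13 by 4.64 and 5.72. These genes had few reads in E4.5 tissue, and without E4.5-Ant library 3 the order turned in the HOXA cluster, where HOXA11 had a log2FC of 7.63 and HOXA13 one of 6.26. The genes next to the clusters that follow group 13, EVX1 and EVX2, had 1 count at most in any E4.5 library. EVX2 had between 0.496 and 2.67 CPM in the ducts, with a median of 1.44, which is at least 12.8-fold higher than the floor of 3 counts per E4.5 library allows, and EVX1 had between 0.319 and 1.79 CPM in the ducts, with a median of 1.15, at least 9.97-fold higher. Of 19 anterior and central HOX genes tested, 3 rose (15.8%) and none fell, where 12.2% and 6.17% of all tested genes did. Their median log2FC was 0.14. The 3 that rose were HOXA3, HOXC6 and HOXC8, with log2FC of 0.65 ± 0.06, 0.93 ± 0.08 and 1.51 ± 0.13, and HOXC8 overlapped between the sides. HOXC8 had a log2FC of 0.12 against E4.5-Post alone (edgeR FDR 0.439) and 2.90 against E4.5-Ant alone.

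The largest falls among genes with a mean of at least 5 CPM in E4.5 tissue included podocyte genes and genes with few reads in the ducts. PTPRQ, a receptor tyrosine phosphatase (chromosome 1, 39960864 to 40064069), had between 9.36 and 86.5 CPM in the ducts, with a median of 35.1, against 646 and 527 CPM in E4.5-Ant and 652, 719 and 581 CPM in E4.5-Post (log2FC -4.17 ± 0.19, edgeR FDR 3.54e-10). PTPRO, a phosphatase of podocyte foot processes, had between 11.3 and 49.1 CPM in the ducts, with a median of 24.9, against 318 and 261 CPM in E4.5-Ant and 311, 364 and 287 CPM in E4.5-Post (log2FC -3.63 ± 0.12, edgeR FDR 4.1e-11). Both genes were far lower in ducts and lower again at E6.5 than at E5.5, with log2FC of -1.89 and -1.38 between the ducts. SLC28A3, a nucleoside transporter, had between 1.82 and 8.45 CPM in the ducts, with a median of 4.05, against 55.1 and 48.7 CPM in E4.5-Ant and 88.5, 109 and 86.2 CPM in E4.5-Post (log2FC -4.02 ± 0.17, edgeR FDR 2.21e-10). SLC28A3 was also lower in the anterior than in the posterior E4.5 region (log2FC -0.90, edgeR FDR 0.00545). LMX1B, a transcription factor of podocytes, had between 1.11 and 6.47 CPM in the ducts, with a median of 2.56, against 37.1 and 34.4 CPM in E4.5-Ant and 46.1, 57.7 and 43.9 CPM in E4.5-Post (log2FC -3.85 ± 0.16, edgeR FDR 1.55e-10).

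FDX1L, named for the electron carrier ferredoxin, had the largest fall at this level, to between 0.0661 and 0.338 CPM in the ducts, with a median of 0.103, against 8.12 and 4.08 CPM in E4.5-Ant and 8.43, 12.3 and 11.3 CPM in E4.5-Post (log2FC -5.68 ± 0.30, edgeR FDR 1.62e-09). Its level did not differ detectably between the ducts (log2FC 0.34, edgeR FDR 0.796), which held 10 counts at most. HTR4, a serotonin receptor, had between 1.49 and 3.80 CPM in the ducts, with a median of 2.47, against 35.5 and 30.9 CPM in E4.5-Ant and 33.6, 36 and 26.6 CPM in E4.5-Post (log2FC -3.72 ± 0.10, edgeR FDR 7.85e-12). MAFA, a transcription factor known from pancreatic beta cells, had between 0.540 and 3.70 CPM in the ducts, with a median of 1.76, against 23.5 and 17.8 CPM in E4.5-Ant and 34.4, 42.6 and 29.6 CPM in E4.5-Post (log2FC -3.94 ± 0.19, edgeR FDR 6.22e-10). SCGN and CNTNAP4, a calcium sensor and a neuronal adhesion protein, fell, with log2FC of -3.94 ± 0.20 and -3.999 ± 0.15. HTR4, MAFA, SCGN and CNTNAP4 were lower at E6.5 than at E5.5 as well, with log2FC of -1.06, -1.25, -1.43 and -1.61. The unnamed gene with the largest fall, LOC107052588 (log2FC -4.51 ± 0.20), lies directly before PTPRQ on the same strand of chromosome 1 (39952835 to 39958967).

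Most podocyte genes that were called fell. Of 19 tested, 10 fell, all without overlap (52.6% against 6.17% of all tested genes). Another 4 rose (21.1% against 12.2%), and the median log2FC of the list was -0.79. VEGFA, the vascular growth factor that podocytes secrete, had 31.1 ± 1.66 CPM in ducts and 82.4 ± 8.73 CPM in E4.5 tissue (SD, n = 6 and 5; log2FC -1.35 ± 0.05, edgeR FDR 5.46e-11), and PODXL, the anionic coat protein podocalyxin, had 251 ± 44.1 CPM in ducts and 583 ± 82.3 CPM in E4.5 tissue (log2FC -1.17 ± 0.05, edgeR FDR 2.59e-10). The 4 that rose were CDKN1C, SYNPO, ROBO2 and KIRREL3, with log2FC of 1.23 ± 0.09, 0.88 ± 0.05, 0.85 ± 0.10 and 0.77 ± 0.08, of which SYNPO overlapped. WT1, which podocytes share with the coelomic epithelium, had 406 to 449 CPM in ducts and 309.9 to 372 CPM in E4.5 tissue, higher without overlap but inside the fold limit (log2FC 0.37). The list summed to 1880 to 2041 CPM in the ducts, against 3267 to 3969 in E4.5 tissue.

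Of 29 transcription factors of the nephron and kidney tested, 11 fell (37.9%) and 4 rose (13.8%). The shares of all tested genes were 6.17% and 12.2%, and the median log2FC of the list was -0.23. Against E4.5-Post alone 14 fell and 3 rose, where 7.54% and 15.5% of all tested genes did. Against E4.5-Ant alone 7 fell and 4 rose, where 6.75% and 9.31% did. At E4.5, 11 were lower anteriorly and 1 higher, against 3.05% and 7.7%. The list summed to 1914 to 2044 CPM in the ducts, 1704 and 1773 in E4.5-Ant and 2324 to 2494 in E4.5-Post. The falls included IRX2, HES5 and IRX1 (-2.26 ± 0.20, -2.09 ± 0.15 and -1.82 ± 0.18), which take part in nephron segmentation and Notch signalling. The genes that rose were EHF, OSR1, EMX2 and SIX2 (2.72 ± 0.31, 1.29 ± 0.07, 0.87 ± 0.04 and 0.81 ± 0.33). OSR1 marks early intermediate mesoderm, and EMX2 is needed for the urogenital system in mice. SIX2 was at or below 1.26 CPM in every library and overlapped.

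Genes of the mesonephric tubule did not follow the podocyte genes. Of 33 tested, 12 rose (36.4%) and 5 fell (15.2%), where 12.2% and 6.17% of all tested genes did. Their median log2FC was -0.003. The summed list had 4146 to 4792 CPM in the ducts, against 2931 to 3758 in E4.5 tissue. This gap rests on CALB1, also on the Wolffian duct list, with 1117 to 1573 CPM in the ducts and 209 to 294 CPM in E4.5 tissue. Without CALB1 the sums of the sides overlap. The rises included CALB1 (above), ATP6V0A4, a proton pump subunit of intercalated cells (1.59 ± 0.09), and FBP1, an enzyme of gluconeogenesis in proximal tubules (1.20 ± 0.10). DAB2, an adaptor of receptor-mediated endocytosis, had 659.7 ± 82.1 CPM in ducts and 301 ± 31.2 CPM in E4.5 tissue (log2FC 1.17 ± 0.05, edgeR FDR 5.08e-10). Its partner receptor LRP2, megalin, moved the other way, with 442 ± 133 CPM in ducts and 808 ± 101 CPM in E4.5 tissue (log2FC -0.87 ± 0.10, edgeR FDR 6.52e-06). SLC12A1, the cotransporter of the diluting segment, and ENPEP, a brush-border peptidase, fell by 1.20 and 1.04 on the log2 scale, and SLC12A1 overlapped. How far mesonephros dissected with the ducts contributed to these levels was not tested.

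**Figure D3:**
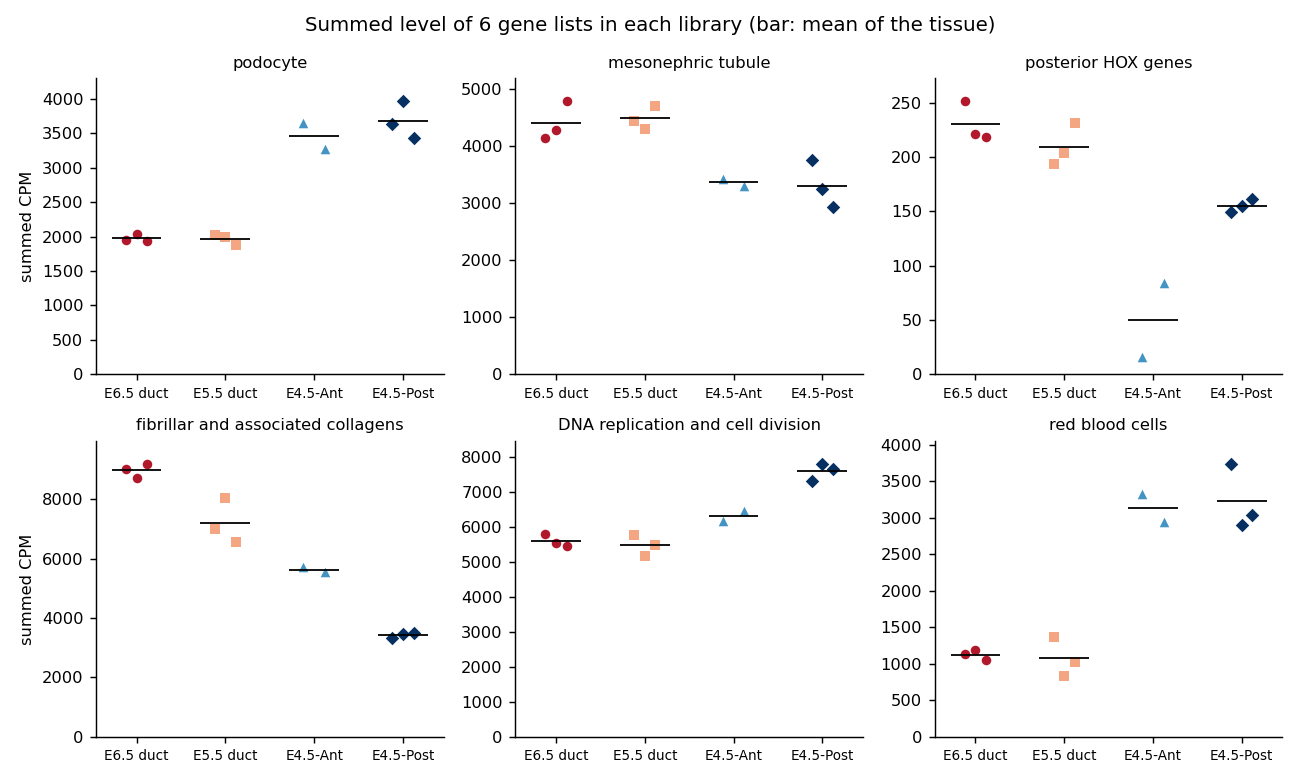
Summed CPM of 6 gene lists in each library (y axis, from 0), by tissue, with a bar at the mean of each tissue. The duct libraries lie below all E4.5 libraries for podocyte, cell division and red blood cell genes and above them for tubule, posterior HOX and collagen genes. For tubule genes the gap rests on CALB1.

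The Wolffian duct runs beside the Müllerian duct. Of 11 of its genes tested, 5 rose without overlap (45.5%) and SIM1 fell (-1.14 ± 0.07) with overlap. Of all tested genes, 12.2% rose and 6.17% fell, with or without overlap. The median log2FC of the list was 0.58. EHF and CALB1 rose most, and ETV4, a target of FGF and RET signalling, had 66.05 ± 21.9 CPM in ducts and 24.5 ± 2.29 CPM in E4.5 tissue (log2FC 1.39 ± 0.07, edgeR FDR 5.22e-10). WNT9B, the Wolffian duct signal on which the Müllerian duct depends in mice, had between 102 and 152 CPM in the ducts, with a median of 129, against 45.5 and 48.6 CPM in E4.5-Ant and 86.5, 91.9 and 97.9 CPM in E4.5-Post (log2FC 0.94 ± 0.06, edgeR FDR 9.24e-09). WNT9B was lower in the anterior than in the posterior E4.5 region (-1.001 on the log2 scale, edgeR FDR 1.88e-06). RET and GFRA1, the receptors for GDNF at the Wolffian duct tip, had 17.4 to 37.2 CPM in ducts and 11.6 to 50.5 CPM in E4.5 tissue, and 39.9 to 63.6 CPM in ducts and 50.8 to 63.9 CPM in E4.5 tissue.

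Regulators of Müllerian duct formation or regression known from mice rose more often than they fell. Of 27 tested, 12 rose (44.4%), 11 of them without overlap, and 1 fell, where 12.2% and 6.17% of all tested genes did. Their median log2FC was 0.47. The list shares its HOX genes with the posterior HOX list. Against E4.5-Post alone 10 rose and 2 fell, where 15.5% and 7.54% of all tested genes did. Against E4.5-Ant alone 10 rose and none fell, where 9.31% and 6.75% did. At E4.5, 7 of the 27 were lower and 2 higher in the anterior than in the posterior region. The list summed to 3559 to 3706 CPM in the ducts, 3359 and 3556 in E4.5-Ant and 3972 to 4279 in E4.5-Post. WNT7A, which patterns the oviduct and uterus and is made by Müllerian epithelium, had between 4.49 and 10.8 CPM in the ducts, with a median of 6.67, against 1.57 and 1.49 CPM in E4.5-Ant and 0.442, 0.353 and 0.522 CPM in E4.5-Post (log2FC 3.04 ± 0.14, edgeR FDR 4.08e-10). It was higher at E6.5 than at E5.5, and higher anteriorly than posteriorly at E4.5 (log2FC 0.90 and 1.76). WNT4, which starts Müllerian invagination in mice, had between 25.6 and 35.3 CPM in the ducts, with a median of 33.6, against 7.04 and 11.9 CPM in E4.5-Ant and 19.3, 18.8 and 21.9 CPM in E4.5-Post (log2FC 1.23 ± 0.10, edgeR FDR 1.72e-07). AMHR2, the receptor through which anti-Müllerian hormone makes the duct regress in males, had between 52.99 and 67.6 CPM in the ducts, with a median of 62.3, against 32.7 and 36.4 CPM in E4.5-Ant and 37.97, 33.2 and 33.4 CPM in E4.5-Post (log2FC 0.85 ± 0.05, edgeR FDR 4.28e-09). EMX2 and RXRA, a retinoid receptor, rose by 0.87 and 0.77 on the log2 scale. PAX2 and LHX1, which mark the epithelia of both ducts and of nephrons, did not reach the fold limit, with 219 to 335 CPM in ducts and 202 to 373 CPM in E4.5 tissue for PAX2 (log2FC 0.01, edgeR FDR 0.865) and 85.4 to 105 CPM in ducts and 74.1 to 185 CPM in E4.5 tissue for LHX1 (log2FC -0.22, edgeR FDR 0.00424). Both were lower in the anterior than in the posterior E4.5 region (-0.77 and -1.08 on the log2 scale), so that their E4.5 libraries spread around the ducts.

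More WNT genes rose than fell. Of 54 tested, 24 rose (44.4%), 19 of them without overlap, and 3 fell, where 12.2% and 6.17% of all tested genes did. Their median log2FC was 0.45. Among the ligands, WNT7A, WNT7B, WNT16 and WNT6 rose most (3.04 ± 0.14, 2.81 ± 0.21, 2.73 ± 0.13 and 1.84 ± 0.10). WNT16 had between 12.5 and 27.8 CPM in the ducts, with a median of 20.1, against 3.90 and 3.22 CPM in E4.5-Ant and 2.17, 1.73 and 3.03 CPM in E4.5-Post (log2FC 2.73 ± 0.13, edgeR FDR 5.47e-10). WNT6 had between 14.6 and 35.2 CPM in the ducts, with a median of 24.9, against 11.4 and 12.2 CPM in E4.5-Ant and 3.98, 2.90 and 4.45 CPM in E4.5-Post (log2FC 1.84 ± 0.10, edgeR FDR 2.28e-09). All 4 were higher at E6.5 than at E5.5. RSPO1 and RSPO3, secreted enhancers of WNT signalling, rose by 1.24 and 1.25 on the log2 scale. Among receptors, LGR5, the receptor for R-spondins, had 206 ± 60.4 CPM in ducts and 95.2 ± 11.1 CPM in E4.5 tissue (log2FC 1.11 ± 0.06, edgeR FDR 1.75e-09), FZD10 rose by 1.38 on the log2 scale, and FZD4 had 158 ± 27.2 CPM in ducts and 368 ± 24.5 CPM in E4.5 tissue and fell (log2FC -1.22 ± 0.06, edgeR FDR 1.21e-09). AXIN2, a scaffold that limits beta-catenin and is itself induced by it, had between 53.8 and 62.8 CPM in the ducts, with a median of 57.8, against 24.7 and 27.5 CPM in E4.5-Ant and 29.2, 27.4 and 30.6 CPM in E4.5-Post (log2FC 1.10 ± 0.05, edgeR FDR 4.43e-10), and LEF1 and NKD1 rose by 1.18 and 1.18 on the log2 scale. AXIN2 did not differ detectably between the ducts (log2FC 0.08, edgeR FDR 0.388). The antagonists WIF1 and DKK1 rose as well (1.96 ± 0.13 and 1.57 ± 0.25), DKK1 with overlap. The genes that fell beside FZD4 were the receptor FZD8 (log2FC -0.75 ± 0.08) and the antagonist SFRP4 (log2FC -0.67 ± 0.26), SFRP4 with overlap.

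Of 44 genes of the TGF-beta and BMP pathway tested, 11 rose (25%) and 5 fell (11.4%). The shares of all tested genes were 12.2% and 6.17%, and the median log2FC of the list was 0.08. Against E4.5-Post alone 13 rose and 4 fell, where 15.5% and 7.54% of all tested genes did. Against E4.5-Ant alone 8 rose and 8 fell, where 9.31% and 6.75% did. At E4.5, 11 of the 44 were higher anteriorly and none lower, against 7.7% and 3.05% of all tested genes. CHRDL1, a BMP antagonist, had between 14.7 and 45.8 CPM in the ducts, with a median of 28.3, against 4.32 and 6.52 CPM in E4.5-Ant and 4.53, 5.48 and 7.09 CPM in E4.5-Post (log2FC 2.32 ± 0.16, edgeR FDR 3.26e-08). BMP3, a ligand that opposes other BMPs, had between 18.03 and 29.01 CPM in the ducts, with a median of 21.3, against 4.28 and 5.82 CPM in E4.5-Ant and 4.86, 4.63 and 5.11 CPM in E4.5-Post (log2FC 2.20 ± 0.10, edgeR FDR 4.64e-10). Among ligands, INHBA and GDF7 rose with overlap (1.87 ± 0.15 and 1.61 ± 0.11), BMP7 rose by 0.62 and BMP5 and BMP6 fell by 1.10 and 0.85 on the log2 scale. GREM1, another antagonist, fell (-1.42 ± 0.14), so that antagonists moved in both directions.

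Of 16 genes of the retinoic acid pathway tested, 7 rose (43.8%) and none fell. The shares of all tested genes were 12.2% and 6.17%, and the median log2FC of the list was 0.36. The other 9 did not pass the test in either direction. ALDH1A1, which makes retinoic acid, had 379.5 ± 62.4 CPM in ducts and 205 ± 30.1 CPM in E4.5 tissue (log2FC 0.94 ± 0.06, edgeR FDR 1.18e-08). CYP26A1, which degrades it and is itself induced by it, had 6.43 ± 1.88 CPM in ducts and 3.22 ± 0.435 CPM in E4.5 tissue (log2FC 0.96 ± 0.13, edgeR FDR 2.68e-05), and STRA6, the uptake receptor for retinol, rose by 0.93 on the log2 scale. Against E4.5-Ant alone 3 of the 16 rose, where 9.31% of all tested genes did.

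FGF genes and feedback regulators of ERK were divided. Of 32 tested, 8 rose (25%) and 6 fell (18.8%), where 12.2% and 6.17% of all tested genes did. Their median log2FC was 0.32. FGF10, a mesenchymal growth factor for epithelial buds encoded on the Z chromosome, had between 18.8 and 27.8 CPM in the ducts, with a median of 24.6, against 2.75 and 5.24 CPM in E4.5-Ant and 7.04, 4.28 and 7.06 CPM in E4.5-Post (log2FC 2.34 ± 0.16, edgeR FDR 1.64e-08). FGF18 had between 1.75 and 3.74 CPM in the ducts, with a median of 3.04, against 0.975 and 0.702 CPM in E4.5-Ant and 0.626, 0.459 and 0.556 CPM in E4.5-Post (log2FC 2.07 ± 0.16, edgeR FDR 8.95e-08). FGF8, which is made in the mesonephros and needed for nephrons in mice, fell to between 0.148 and 0.765 CPM in the ducts, with a median of 0.502, against 0.871 and 2.72 CPM in E4.5-Ant and 5.53, 6.64 and 6.29 CPM in E4.5-Post (log2FC -2.77 ± 0.30, edgeR FDR 2.16e-06). FGF2 and the decoy receptor FGFRL1 fell by 1.74 and 1.28 on the log2 scale. Of the feedback genes, ETV4 rose (above), whereas DUSP5 and SPRY4 fell by 1.02 and 0.80. Of 45 axon guidance genes tested, 9 rose (20%) and 5 fell (11.1%), where 12.2% and 6.17% of all tested genes did. UNC5D, a netrin receptor, had between 23.9 and 63.9 CPM in the ducts, with a median of 39.8, against 9.72 and 9.49 CPM in E4.5-Ant and 11.8, 12.2 and 11.2 CPM in E4.5-Post (log2FC 1.90 ± 0.06, edgeR FDR 3.71e-11), and the ligands SEMA3G and SEMA3C fell by 1.61 and 1.16 on the log2 scale.

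Fibrillar and associated collagens rose in the ducts. Of 24 tested, 14 rose (58.3%), 10 of them without overlap, and COL9A3 fell with overlap. Of all tested genes, 12.2% rose and 6.17% fell. The median log2FC of the list was 0.74. The list summed to 6569 to 9185 CPM in the ducts, against 3336 to 5705 in E4.5 tissue. COL1A2 had between 1233 and 2551 CPM in the ducts, with a median of 1915, against 1143 and 1072 CPM in E4.5-Ant and 373, 362 and 416 CPM in E4.5-Post (log2FC 1.48 ± 0.07, edgeR FDR 9.67e-10). COL1A1 had between 479 and 1409 CPM in the ducts, with a median of 1032, against 442 and 426 CPM in E4.5-Ant and 204, 231 and 205 CPM in E4.5-Post (log2FC 1.57 ± 0.12, edgeR FDR 1.01e-07). For both chains of collagen I the lowest duct library, at E5.5, lay just above the E4.5-Ant libraries, and E4.5-Post lay lowest. Both were higher in E6.5 duct than in E5.5 duct (0.86 and 1.12 on the log2 scale) and in anterior than in posterior E4.5 tissue (1.5 and 0.9968). COL6A3, by contrast, had between 246 and 329.7 CPM in the ducts, with a median of 285, against 145 and 146 CPM in E4.5-Ant and 104, 104 and 118 CPM in E4.5-Post (log2FC 1.20 ± 0.05, edgeR FDR 4.21e-10), with no call within either side. Against E4.5-Ant alone 9 of the 24 rose, where 9.31% of all tested genes did. At E4.5, 13 of the 24 were higher in the anterior than in the posterior E4.5 region, against 7.7% of all tested genes.

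Interstitial matrix proteins and enzymes depended on which E4.5 region was compared. Of 42 tested, 17 rose (40.5%) and 2 fell (4.76%), where 12.2% and 6.17% of all tested genes did. Their median log2FC was 0.47, and 7 of the 17 did not overlap. Against E4.5-Post alone 29 rose and none fell, where 15.5% and 7.54% of all tested genes did, and against E4.5-Ant alone 8 rose and 6 fell, where 9.31% and 6.75% did. At E4.5, 24 of the 42 were higher in the anterior than in the posterior E4.5 region, against 7.7% of all tested genes. THBS1, an adhesive glycoprotein, had between 647 and 914 CPM in the ducts, with a median of 808, against 229 and 227 CPM in E4.5-Ant and 238, 246 and 226 CPM in E4.5-Post (log2FC 1.78 ± 0.05, edgeR FDR 7.85e-12), and its difference between the E4.5 regions was small (log2FC -0.08, edgeR FDR 0.405). MMP11, a stromal metalloproteinase, had between 21.6 and 43.1 CPM in the ducts, with a median of 28.6, against 14 and 14.1 CPM in E4.5-Ant and 3.68, 3.50 and 2.75 CPM in E4.5-Post (log2FC 2.12 ± 0.08, edgeR FDR 7.65e-11). THBS2 and FBLN5, the genes that fell, had 29.2 to 47.4 CPM in ducts and 16.9 to 275 CPM in E4.5 tissue, and 15.1 to 23.5 CPM in ducts and 10.7 to 107 CPM in E4.5 tissue. Their levels were high in E4.5-Ant, and against E4.5-Post alone their log2FC were 0.88 and 0.45.

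Basement membrane genes moved in both directions. Of 33 tested, 10 rose (30.3%) and 5 fell (15.2%), where 12.2% and 6.17% of all tested genes did. Their median log2FC was 0.22. COL4A3 and COL4A4, chains of the glomerular basement membrane, fell most, and COL4A3 had between 3.11 and 6.95 CPM in the ducts, with a median of 4.86, against 33.5 and 30.8 CPM in E4.5-Ant and 20.99, 20.4 and 17.04 CPM in E4.5-Post (log2FC -2.36 ± 0.09, edgeR FDR 8.1e-11). COL4A4 fell by 2.25 on the log2 scale, and COL4A1 and COL4A2, the chains of most basement membranes, fell by 0.75 and 0.72. TINAG, a tubular basement membrane protein, and SMOC1 rose most (2.69 ± 0.22 and 2.09 ± 0.10). The log2FC of TINAG was 4.12 against E4.5-Post alone and 1.25 against E4.5-Ant alone. SMOC1 had between 59.1 and 92.2 CPM in the ducts, with a median of 76.6, against 12.8 and 18.9 CPM in E4.5-Ant and 20.1, 18.4 and 22.6 CPM in E4.5-Post. EGFLAM, a ligand of dystroglycan encoded on the Z chromosome, had 606 ± 118 CPM in ducts and 228 ± 33.1 CPM in E4.5 tissue (log2FC 1.38 ± 0.05, edgeR FDR 7.16e-11), and NPNT, the integrin ligand nephronectin, had 335 ± 25.7 CPM in ducts and 184 ± 6.51 CPM in E4.5 tissue (log2FC 0.89 ± 0.05, edgeR FDR 2.35e-09).

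Regulators of mesenchyme rose more often than they fell. Of 33 tested, 11 rose (33.3%), 9 of them without overlap, and TBX5 fell with overlap. Of all tested genes, 12.2% rose and 6.17% fell. The median log2FC of the list was 0.27. The list holds FOXE1, RUNX1, SMARCA2 and TSHZ3, which the paper had picked from these same libraries as up-regulated in the duct. Their rises were known when the list was made, so these counts are a description. By in situ hybridization the paper found RUNX1 strong in duct epithelium and also present in mesenchyme. FOXE1, a forkhead factor encoded on the Z chromosome, had between 42.1 and 193 CPM in the ducts, with a median of 117, against 7.98 and 8.83 CPM in E4.5-Ant and 10.7, 10.3 and 11.2 CPM in E4.5-Post (log2FC 3.34 ± 0.08, edgeR FDR 7.85e-12). All 3 E6.5 libraries of FOXE1 lay between 175 and 193 CPM and the 3 E5.5 libraries between 42.1 and 59.4 CPM. RUNX1, a runt factor, had between 44.1 and 109 CPM in the ducts, with a median of 82.7, against 26.3 and 21.8 CPM in E4.5-Ant and 4.05, 3.75 and 4.10 CPM in E4.5-Post (log2FC 2.97 ± 0.08, edgeR FDR 7.85e-12), with a difference between the regions of 2.57 on the log2 scale. MSX2, a homeobox factor that responds to BMPs, had between 14.5 and 25.8 CPM in the ducts, with a median of 21.8, against 1.95 and 4.002 CPM in E4.5-Ant and 6.30, 6.47 and 6.85 CPM in E4.5-Post (log2FC 2.23 ± 0.14, edgeR FDR 1.15e-08). TBX2, TBX3 and TSHZ3 rose by 0.84, 0.73 and 1.15 on the log2 scale.

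Genes of epithelial junctions and identity moved in both directions. Of 32 tested, 7 rose (21.9%) and 5 fell (15.6%), where 12.2% and 6.17% of all tested genes did. Without E4.5-Ant library 1 only 3 fell. Against E4.5-Post alone 4 rose and 5 fell, where 15.5% and 7.54% of all tested genes did. Against E4.5-Ant alone 13 rose and 2 fell, where 9.31% and 6.75% did. At E4.5, 12 of the 32 were lower in the anterior than in the posterior region, against 3.05% of all tested genes. KRT19, a keratin of simple epithelia, had 104 ± 16.4 CPM in ducts and 50.6 ± 5.76 CPM in E4.5 tissue (log2FC 1.08 ± 0.10, edgeR FDR 3.27e-07), and the claudin CLDN16, which carries divalent cations in the kidney, had 12.8 ± 2.33 CPM in ducts and 35.3 ± 10.04 CPM in E4.5 tissue (log2FC -1.33 ± 0.08, edgeR FDR 8.08e-09). Of 14 genes of the coelomic and surface epithelium tested, 6 rose and 4 fell, where 12.2% and 6.17% of all tested genes did. BNC1 and LRRN4 were among those that rose (0.73 ± 0.07 and 0.77 ± 0.04), and LHX9, a factor of the coelomic epithelium of the gonad, fell to at most 0.165 CPM in the ducts, against 2.79 and 5.53 CPM in E4.5-Ant and 1.33, 2.62 and 0.452 CPM in E4.5-Post (log2FC -6.03 ± 0.64, edgeR FDR 1.8e-06). Without E6.5 duct library 2 the log2FC of LHX9 was -6.99.

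Genes of DNA replication and cell division were lower without overlap in 32 of 50 cases, against 15.3% of all tested genes, but by little. None rose and 4 fell (8%), where 12.2% and 6.17% of all tested genes did, and their median log2FC over the list was -0.31. RRM2, a subunit of ribonucleotide reductase, had between 173 and 210.4 CPM in the ducts, with a median of 194, against 237 and 240.4 CPM in E4.5-Ant and 406, 413 and 412 CPM in E4.5-Post (log2FC -0.68 ± 0.04, edgeR FDR 7.1e-09). CCNA2, a cyclin, had 73.2 ± 4.40 CPM in ducts and 119 ± 16.1 CPM in E4.5 tissue (log2FC -0.64 ± 0.04, edgeR FDR 7.76e-09), and AURKA, a mitotic kinase, had 65.3 ± 6.45 CPM in ducts and 113 ± 17.4 CPM in E4.5 tissue (log2FC -0.71 ± 0.05, edgeR FDR 2.49e-08). On CPM scaled by TMM factors 28 of the 50 were lower without overlap. With the omitted E4.5-Ant library included none was, but its rRNA counts lower the CPM of its other genes. The list summed to 3065 CPM in that library, against 5160 to 5791 in the ducts, so that count cannot show whether these genes separate. E4.5-Post lay highest, with 7306 to 7804 summed CPM, and E4.5-Ant lay between it and the ducts. Against E4.5-Post alone 9 fell and against E4.5-Ant alone none did, where 7.54% and 6.75% of all tested genes did. The count for protein genes encoded by mitochondria depended on E5.5 duct library 2. Of 13 tested, 6 rose, where 12.2% of all tested genes did, and without that library 1 did. ND6, ND2 and ATP6 had the largest log2FC (0.92 ± 0.27, 0.70 ± 0.22 and 0.66 ± 0.19), which were 0.51, 0.37 and 0.39 without it, below the fold limit. Of 21 immediate early and stress genes tested, 2 rose and 4 fell, where 12.2% and 6.17% of all tested genes did. The falls included CYR61, a matricellular protein (log2FC -0.95 ± 0.07), and HSPA5, a chaperone of the endoplasmic reticulum. HSPA5 had 314 ± 13.2 CPM in ducts and 541 ± 51.2 CPM in E4.5 tissue (log2FC -0.73 ± 0.04, edgeR FDR 9.65e-10).

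**Figure D4:**
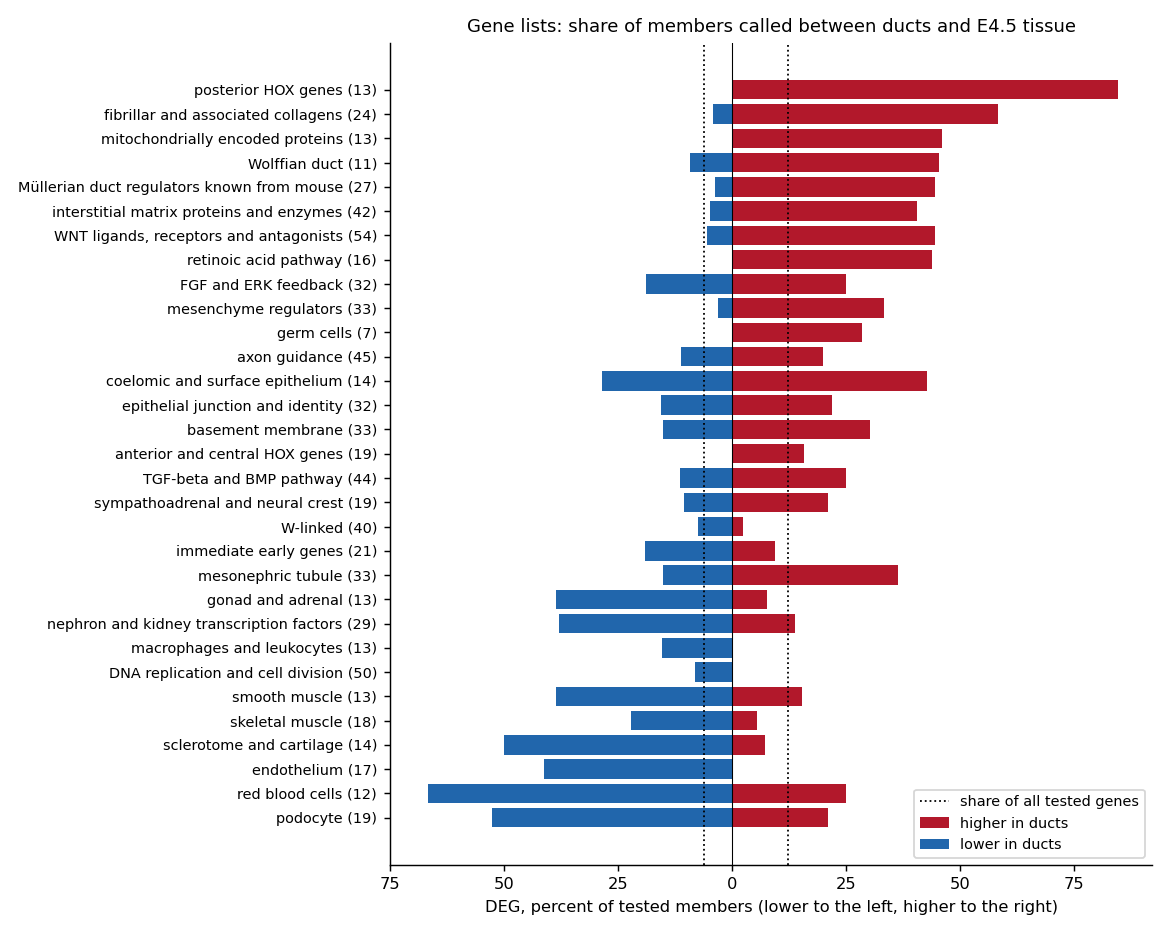
Share of the tested members of each gene list (number in brackets) that were DEG, with genes higher in the ducts to the right and genes lower in the ducts to the left of 0 (x axis, percent), ordered by median log2FC. Dotted lines give the shares of all tested genes, 12.2% and 6.17%, and posterior HOX genes (84.6% higher), collagens (58.3% higher), red blood cells (66.7% lower) and podocyte genes (52.6% lower) lie far from them.

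Markers of other cells differed between the sides as well. Of 12 red blood cell genes tested, 8 fell (66.7%) and 3 rose (25%), where 6.17% and 12.2% of all tested genes did. The summed list had 838 to 1364 CPM in the ducts, against 2898 to 3740 in E4.5 tissue. Among the globins, HBZ, HBBR and HBE fell without overlap, and HBBA and HBE1 rose without overlap. HBZ, the early alpha-type globin, had between 53.7 and 452 CPM in the ducts, with a median of 154, against 1397 and 1322 CPM in E4.5-Ant and 1546, 1213 and 1295 CPM in E4.5-Post (log2FC -3.27 ± 0.13, edgeR FDR 1.45e-10). HBBR had between 100.5 and 323 CPM in the ducts, with a median of 149, against 742 and 619 CPM in E4.5-Ant and 837, 651 and 688 CPM in E4.5-Post (log2FC -2.12 ± 0.12, edgeR FDR 2.24e-09). Both were lower again at E6.5 than at E5.5 (log2FC -2.44 and -1.18). The 3 that rose were HBBA, HBE1 and RHAG. HBBA, the adult beta globin, had between 8.19 and 293 CPM in the ducts, with a median of 133, against 4.63 and 4.08 CPM in E4.5-Ant and 3.76, 2.83 and 2.61 CPM in E4.5-Post (log2FC 4.52 ± 0.35, edgeR FDR 7.83e-08). The 3 E6.5 libraries of HBBA held 221 to 293 CPM, and E5.5 duct library 1, with 8.19 CPM, lay close to E4.5 tissue. HBE1, which lies next to HBBA on chromosome 1, had between 3.03 and 43.9 CPM in the ducts, with a median of 21.1, against 1.67 and 1.82 CPM in E4.5-Ant and 2.73, 1.31 and 1.46 CPM in E4.5-Post (log2FC 2.91 ± 0.21, edgeR FDR 3.18e-08), and RHAG, an ammonia channel of red cells, rose by 2.78 on the log2 scale. HBA1 and HBM, alpha-type globins of definitive red cells, fell by 0.66 and 0.82 on the log2 scale but were higher at E6.5 than at E5.5 (0.81 and 0.79). Globin genes are near copies of each other, and how reads shared by copies were assigned is not given in the sources used here, so single globin values are uncertain.

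In this paragraph, counts of both ducts against both E4.5 regions compare with 12.2% higher and 6.17% lower of all tested genes. Of 17 endothelial genes tested, 7 fell and none rose, with 948 to 1107 CPM in the ducts, against 1155 to 1540 in E4.5 tissue. Against E4.5-Ant alone 10 fell and none rose, where 6.75% and 9.31% of all tested genes did. Against E4.5-Post alone 5 fell and 2 rose, where 7.54% and 15.5% did. FLT1 and KDR, receptors for VEGF, fell by 0.97 and 0.77 on the log2 scale, while CDH5 and PECAM1, which define endothelium, had 179 to 271 CPM in ducts and 263 to 389.7 CPM in E4.5 tissue, and 180.0 to 214 CPM in ducts and 108 to 166 CPM in E4.5 tissue, and were not DEG. Of 13 macrophage and leukocyte genes tested, 2 fell and none rose, with 112 to 144 CPM in the ducts, against 159 to 240.4 in E4.5 tissue. Against E4.5-Ant alone 7 of the 13 fell and none rose, where 6.75% and 9.31% of all tested genes did. Against E4.5-Post alone 2 fell and 2 rose, where 7.54% and 15.5% did. At E4.5, 8 of the 13 were higher anteriorly, against 7.7% of all tested genes. Of 13 genes of gonad and adrenal tested, 5 fell and NR0B1 rose. NR5A1, the master regulator of steroidogenic tissue, fell to between 0.101 and 0.265 CPM in the ducts, with a median of 0.237, against 5.19 and 2.68 CPM in E4.5-Ant and 3.83, 5.62 and 3.83 CPM in E4.5-Post (log2FC -4.36 ± 0.26, edgeR FDR 6.44e-09), and CYP11A1, which starts steroid synthesis, had 0.0992 to 0.551 CPM in ducts and 0.825 to 1.99 CPM in E4.5 tissue (log2FC -2.27 ± 0.29, edgeR FDR 1.36e-05). FDX1L and LHX9 (above) also belong to this list, FOXL2 was at the floor in the ducts and CYP19A1 in E4.5 tissue, and the summed list had 120.2 to 141 CPM in the ducts, against 155 to 179 in E4.5 tissue. Of 14 sclerotome and cartilage genes tested, 7 fell and UNCX rose, with 568 to 704 CPM in the ducts, against 423 to 880.4 in E4.5 tissue. ACAN, a cartilage proteoglycan, had 0.287 to 0.606 CPM in ducts and 0.730 to 12.96 CPM in E4.5 tissue (log2FC -3.24 ± 0.67, and -1.96 without E4.5-Ant library 3 or -2.53 without E4.5-Post library 2). PAX1 had 0.185 to 20.1 CPM in ducts and 2.80 to 20.6 CPM in E4.5 tissue, with all 3 E5.5 libraries above the E6.5 libraries, and with E5.5 duct alone its log2FC was 0.75. Of 13 smooth muscle genes tested, 5 fell and 2 rose. TAGLN had 7.76 to 11.6 CPM in ducts and 9.15 to 109.8 CPM in E4.5 tissue, with the E4.5-Ant libraries highest (109.8 and 78.2 CPM). Against E4.5-Post alone none of the 13 fell, where 7.54% of all tested genes did. The summed list had 502 to 606 CPM in the ducts, against 409.5 to 1312 in E4.5 tissue. Of 18 skeletal muscle genes, 4 fell and 1 rose, and without E5.5 duct library 2 or without E4.5-Post library 1, 8 fell. With E5.5 duct alone 5 rose and none fell, where 1797 and 773 of all 16603 tested genes did. With E6.5 duct alone none rose and 10 fell, where 2349 and 1317 did. Between the ducts, 12 of the 18 were lower at E6.5 and none higher, against 3.45% and 4.11% of all tested genes. Their summed level was 123.5 to 188 CPM in E5.5 duct, 73.1 to 84.6 in E6.5 duct and 116 to 200.2 in E4.5 tissue. MYH1E was at the floor on both sides. Of 19 sympathoadrenal and neural crest genes, 4 rose and 2 fell, and without E5.5 duct library 3 none fell. Their summed level was 692 to 839 CPM in the ducts, against 477 to 514 in E4.5 tissue, with INSM1 at the floor on both sides. This gap rests on GATA2, with 334.5 to 438.9 CPM in the ducts and 79.4 to 177.6 CPM in E4.5 tissue. Without GATA2 the sums of the sides overlap. The genes that fell were FOXD3 and SOX10 (log2FC -0.61 and -0.59). Of 7 germ cell genes, 2 rose, CLDN3 and PIWIL1 (log2FC 1.16 and 0.95). CLDN3 is a claudin that is also on the list of epithelial junctions. DAZL, which defines germ cells, had 0.595 to 1.25 CPM in ducts and 0.332 to 1.44 CPM in E4.5 tissue. The summed germ cell list had 72.2 to 138 CPM in the ducts, against 45.4 to 72.01 in E4.5 tissue. The part of CLDN3 in this sum was not tested, and NANOG was at the floor in the ducts. The part of these cells in the differences of other genes was not tested.

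The share of genes that rose differed between chromosomes. On the Z chromosome, 100 of 759 tested genes rose without overlap (13.2%) and 27 fell (3.56%), against 1191 of 15844 (7.52%) and 619 of 15844 (3.91%) elsewhere. Rises of at least 2-fold were found for 67 Z genes (8.83%) against 4.10% elsewhere, and rises of at least 4-fold for 26 (3.43%) against 1.17%. These shares are a description, since neighbouring genes are not independent. The median log2FC of all Z genes was 0.04, against 0.01 elsewhere. The difference between 13.2% and 7.52% was not tested. Chromosomes 27 and 21 followed, with 10.99% and 10.04%. Within the Z chromosome, 13 of the 46 genes tested between 25000001 and 30000000 (GRCg6a) rose without overlap, and 12 of the 46 between 65000001 and 70000000, whereas none of the 26 between 45000001 and 50000000 did. Male birds carry a pair of Z chromosomes and females a Z and a W, and birds do not balance the dosage in full. The W-linked levels given above overlapped between the sides.

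**Figure D5:**
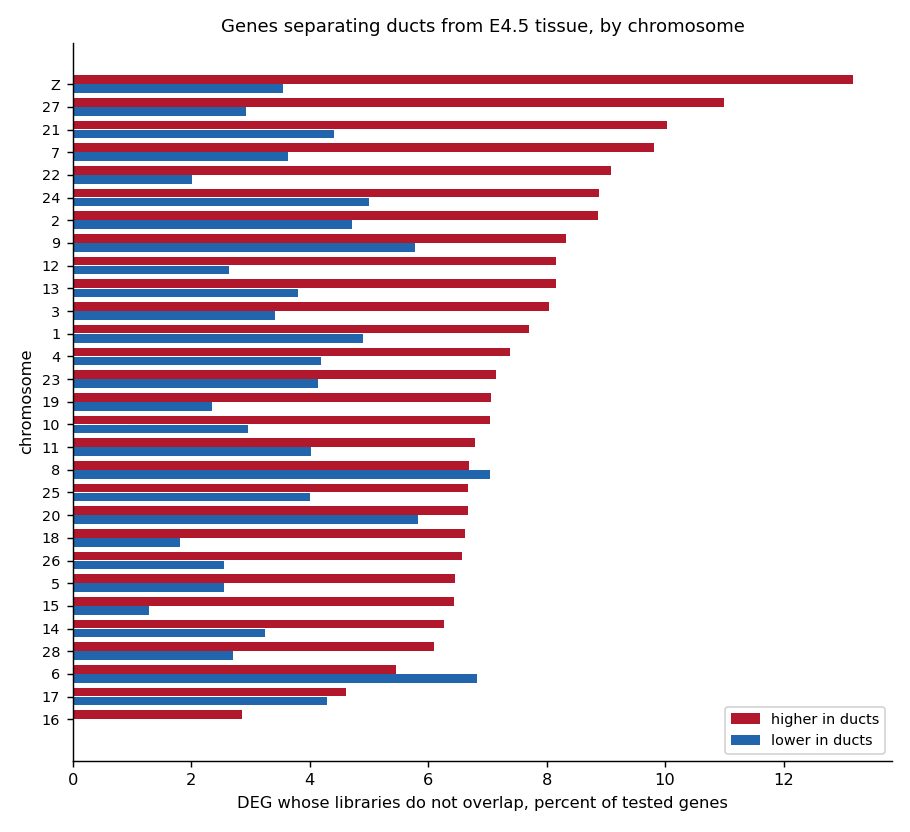
Share of the tested genes of each named chromosome with at least 100 tested genes that were DEG without overlap (x axis, percent), higher in the ducts (red) and lower in the ducts (blue). The Z chromosome has the highest share of rises (13.2%), and chromosomes 8 and 6 have more falls than rises.

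The Z genes that rose most included the 3 DMRT genes. DMRT3 had between 6.15 and 16.8 CPM in the ducts, with a median of 12.1, against 0.314 and 0.578 CPM in E4.5-Ant and 0.810, 0.601 and 0.870 CPM in E4.5-Post (log2FC 4.26 ± 0.20, edgeR FDR 5.22e-10). DMRT1, the gene on which testis formation in birds depends, had between 8.13 and 20.5 CPM in the ducts, with a median of 14.1, against 1.08 and 1.53 CPM in E4.5-Ant and 3.72, 3.60 and 3.69 CPM in E4.5-Post (log2FC 2.65 ± 0.14, edgeR FDR 1.87e-09). DMRT2 had between 1.59 and 21.3 CPM in the ducts, with a median of 9.93, against 1.08 and 1.03 CPM in E4.5-Ant and 0.552, 0.636 and 1.08 CPM in E4.5-Post (log2FC 2.998 ± 0.23, edgeR FDR 8.06e-08). The E5.5 libraries held 1.59, 2.31 and 3.98 CPM of DMRT2, close to E4.5 tissue, and E6.5 duct was higher (log2FC 2.89), with log2FC between the ducts of 0.82 and 0.99 for DMRT1 and DMRT3. Abundant Z genes rose with them. PTBP3, which binds RNA and acts in splicing, had between 501 and 1135 CPM in the ducts, with a median of 914, against 98.5 and 94.2 CPM in E4.5-Ant and 101, 90.2 and 113 CPM in E4.5-Post (log2FC 3.10 ± 0.11, edgeR FDR 5.15e-11). LVRN, an aminopeptidase, had between 228 and 427 CPM in the ducts, with a median of 354, against 36.6 and 29.5 CPM in E4.5-Ant and 54.4, 37.5 and 47.4 CPM in E4.5-Post (log2FC 3.09 ± 0.10, edgeR FDR 2.58e-11). PIP5K1B, a phosphoinositide kinase, had between 298 and 637 CPM in the ducts, with a median of 534, against 43.3 and 62.6 CPM in E4.5-Ant and 88.6, 71.1 and 97.1 CPM in E4.5-Post (log2FC 2.89 ± 0.14, edgeR FDR 6.21e-10). The nearest duct and E4.5 libraries of these 3 genes differed 4.43-fold, 4.20-fold and 3.07-fold. DMRT1, DMRT2, PTBP3, LVRN and PIP5K1B were chosen for description after their values were seen.

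Some neighbouring members moved together. Runs of at least 4 tested neighbours that were all DEG without overlap and in the same direction numbered 18, 15 of genes that rose and 3 of genes that fell, and held 76 of the 1937 genes (3.92%). The longest, HOXA10 to EVX1 (6 genes, chromosome 2, 32650957 to 32718308), held HOXA11 and HOXA13 as well, and HOXD11 to EVX2 (4 genes, chromosome 7, 16308893 to 16336314) included HOXD12 and HOXD13 (above). The apolipoprotein genes APOA5, APOA4, APOC3 and APOA1 (chromosome 24, 5133632 to 5141688) rose by 1.19 to 1.504 on the log2 scale. APOA1, the main protein of high-density lipoprotein, had between 325 and 625 CPM in the ducts, with a median of 403, against 218 and 241 CPM in E4.5-Ant and 194, 162 and 154 CPM in E4.5-Post. On the Z chromosome, OSMR, RICTOR, FYB and DAB2 (12149853 to 12371157) rose by 1.17 to 2.002, and SMARCA2 and VLDLR lay in another run with an uncharacterised gene on either side of SMARCA2 (26268946 to 26572231). The genes that fell in runs included PTPRQ with OTOGL (chromosome 1, 39843114 to 40064069). Counting was by strand and over whole genes, introns included, so a run can also hold transcripts that read through from a neighbour on the same strand, which was not tested.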

How the data were processed

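Bulk RNA of 12 pooled samples was sequenced from stranded mRNA libraries. The authors deposited whole-number counts per gene and library, made with STAR and featureCounts 1.6.2 on the GRCg6a RefSeq annotation, on the gene strand and over whole genes, introns included. Gene symbols came from the deposited table. Chromosome names were assigned by gene symbols found once in that table and in RefSeq's gene table of GRCg7b (18401 symbols), which placed 22430 of 24121 genes on a named chromosome. The lowest share of agreeing symbols on a named chromosome was 0.7. All coordinates are those of GRCg6a. Library numbers are those of the count columns, whose names give the tissue and not the sample, so they only name libraries. Nothing in the sources used here says that the pools of a tissue came from separate clutches, and p-values measure the spread between these libraries. The paper lists the anterior and posterior E4.5 parts under a single set of embryos, so E4.5-Ant and E4.5-Post are not independent pools. Which of these pools share embryos is not stated, and the main model did not pair them.

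Counts were filtered by tissue, scaled by TMM and fitted with edgeR 4.0.16 (R 4.3.3) in a quasi-likelihood model of 4 tissues and 11 libraries, and the mean of both ducts was compared with the mean of both E4.5 tissues on the log2 scale. The fit, tested on simulated data, was adjusted over all tested genes by the Benjamini-Hochberg method, and SE is that of the log2FC. Libraries were compared without a model on CPM of counts on genes. The genes named were the 10 largest DEG without overlap in each direction with a mean of at least 5 CPM, the 6 with the highest level among those with an absolute log2FC of at least 1, up to 3 DEG per list and direction, the 2 genes on either side of the limit of no overlap, and the largest unnamed gene in each direction. Some genes that this rule covers are not reported here. Not all of the others are described, and list members beyond these, the genes of the Z chromosome and those in runs of neighbours were chosen after their values were seen. The comparison, the rule for members and all gene lists were chosen with earlier results of these data known. Alternatives were DESeq2 1.42.0, voom with limma 3.58.1, other scalings and filters, a model of 2 groups, a block by library number, all 12 libraries, each library left out, and each tissue alone.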

Additional observations from a re-analysis of the deposited data

Results flagged for a closer look

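Dixon's test, which flags about 1 in 20 groups by chance, singled out 3 values among the 5 E4.5 libraries. It was run on each gene named for the largest change or the most reads and on each list, on both sides. Over that many groups several flags arise by chance, so these values are a description. COL7A1L had 349 CPM in E4.5-Post library 2, below the next value of 424.5 CPM. The basement membrane list summed to 8210 CPM in E4.5-Post library 2, above the next value of 7525 CPM. The skeletal muscle list summed to 200.2 CPM in E4.5-Post library 3, above the next value of 139.7 CPM.

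The ducts of both ages differed from each other in 22 of the genes with the largest changes or the most reads, in the same direction as the difference from E4.5 tissue. Of all tested genes, 7.56% were DEG between the ducts. These genes were chosen by their change from E4.5 tissue or their level, which favours such differences, so the count is a description. Higher at E6.5 than at E5.5 were HBBA (log2FC 3.36, edgeR FDR 2.95e-05), SLC17A8 (1.87), RNP (1.35), HOXD12 (1.22), SMARCA2 (1.16), COL1A1 (1.12), DMRT3 (0.99), HTRA3 (0.98), HOXD13 (0.98, edgeR FDR 0.0447) and COL1A2 (0.86). Lower at E6.5 were LOC107052588 (log2FC -2.53, edgeR FDR 0.000304), HBZ (-2.44, edgeR FDR 2.16e-06), PTPRQ (-1.89), LMX1B (-1.68), CNTNAP4 (-1.61), SCGN (-1.43), PTPRO (-1.38), MAFA (-1.25), HBBR (-1.18), SLC28A3 (-1.13), HTR4 (-1.06) and HBE (-0.92). No cause was tested.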

How the results depend on the processing

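The number of DEG (3049) stayed within 1.5 times under the alternatives run except the test against the fold limit itself, which called 1683. It was 2893 to 3106 with a library left out, 2869 with DESeq2, 3032 with voom, 2276 with at least 10 counts in every library, 3246 with no filter, and 3827 and 2665 against E4.5-Post alone and E4.5-Ant alone, which were chosen after seeing the data. The number of genes without overlap (4561) became 2164 with all 12 libraries and 564 with a gap of at least 1.5-fold, and it was 4682 to 5217 with a library left out, which by construction can only add genes. In the count with all 12, the rRNA counts of the added library lower the CPM of its other genes. Correlations between same-numbered libraries ran from -0.09 to 0.09, and a block by library number gave 3037 DEG. With so few libraries per tissue, these correlations cannot show whether E4.5-Ant and E4.5-Post libraries share embryos. Of 150 named genes 143 were DEG, and 7 of these reversed, all with a single tissue on a side. Against E4.5-Post alone FBLN5 had a log2FC of 0.45, THBS2 0.88, PRDM6 0.66 and ACTG2 1.16. With E5.5 duct alone MYF5 had 0.27, ACTC1 0.34 and PAX1 0.75. Under some alternative chosen from the outset, 31 of the 143 lost their call. The causes were not tested. The posterior HOX list had 11 rises, and 2 with at least 10 counts in every library, where fewer of its genes were tested. Depth limits genes with few counts, as for EVX1, EVX2 and FDX1L.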

Other observations

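Genes of pigment cells were looked up after some of them had been seen among the genes that rose. Melanoblasts arise from the neural crest and migrate through the embryo, and retinal and feather pigment cells share these genes. Of 16 looked up, 15 were tested, 9 rose and 2 fell, 8 and 1 of them without overlap, against 12.2% and 6.17% of all tested genes. MLANA, a melanosome protein, had between 0.827 and 1.99 CPM in the ducts, with a median of 1.70, against 0.104 and 0.206 CPM in E4.5-Ant and 0.111, 0.0353 and 0.104 CPM in E4.5-Post (log2FC 3.73 ± 0.32, edgeR FDR 2.29e-07). PMEL, the fibril protein of melanosomes, had between 17.1 and 36.3 CPM in the ducts, with a median of 32.3, against 4.04 and 3.88 CPM in E4.5-Ant and 3.46, 3.57 and 3.76 CPM in E4.5-Post (log2FC 2.94 ± 0.16, edgeR FDR 1.92e-09). TYRP1, an enzyme of melanin synthesis, had between 0.287 and 0.945 CPM in the ducts, with a median of 0.713, against 0.0348 and 0.248 CPM in E4.5-Ant and 0.111, 0.106 and 0.104 CPM in E4.5-Post (log2FC 2.37 ± 0.35, edgeR FDR 4.84e-05). EDNRB2, the endothelin receptor of avian melanoblasts, rose by 1.99 and KIT, the receptor for stem cell factor, by 1.90 on the log2 scale, while EDNRB fell by 1.51 and SOX10, with overlap, by 0.59. MITF, the regulator of the lineage, had 40.3 to 44.8 CPM in ducts and 45.6 to 60.5 CPM in E4.5 tissue, lower without overlap but inside the fold limit (log2FC -0.29 ± 0.05, edgeR FDR 9.75e-05). DCT had 0.287 to 0.814 CPM in ducts and 0.353 to 0.660 CPM in E4.5 tissue (log2FC 0.09 ± 0.27, edgeR FDR 0.786). The genes of this list were chosen with their values in view, so the counts are a description, and their source in the tissue was not tested.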
